A study of Mus musculus with 12 samples.

Results

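Mature 28S ribosomal RNA (rRNA) takes up 4717 positions, or 35.2%, of a deposited map of read depth along the rRNA precursor; the other 8683 positions of that map lie outside it. The members were chosen by position alone, and 8120 positions of the map precede them. The edges themselves had been placed from steps in the averaged depth of these libraries, so the steepness of the edges is a description. Places are given below as nt of 28S, with nt 1 its first position.

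In the study, RNA of 12 libraries, 3 for each of 4 groups, was sequenced after control siRNA or siRNA against Eif3m. The product of Eif3m belongs to eIF3, a factor for starting translation. Hepa1c1c7, a line of mouse hepatoma cells, was given siRNA to luciferase (control) or to Eif3m (10 uM, 3 days), and RNA was purified from the nuclei. FVB/N mice aged 6 to 8 weeks were given the same kinds of siRNA packed in LNP (lipid nanoparticles) by tail vein (0.5 mg/kg, 13 days), and RNA came from phenol and chloroform extraction of ground frozen liver. ZapR cleavage, the kit step that depletes rRNA, was left out for all libraries. Groups given Eif3m siRNA are called knockdown cells and knockdown livers after their labels; the map holds no mRNA, so the Eif3m level was not measured here. The labels do not say whether libraries of 1 group came from separate cultures or animals, and p-values measure only the spread between these libraries. Liver RNA comes from all cell types of the organ, so a change in their mix cannot be told apart from a change within a cell. Between cells and livers, the source, the RNA fraction, the dose and the time all differ together.

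28S rRNA is the long RNA of the large ribosomal subunit. It forms the peptidyl transferase centre, where peptide bonds are made. It is cut from a precursor that also holds 18S, 5.8S and 4 spacers: 28S lies after the second internal transcribed spacer (ITS2) and before the 3′ external transcribed spacer (3′ETS). In mammals it carries long expansion segments rich in G and C, inserted between conserved core stretches. The deposited map carries no annotation of such segments, and the stretches described here were not matched to them.

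Mean depth over 28S was 17058 to 21024 reads per position in control cells and 20016 to 23138 in knockdown cells. Livers were sequenced deeper, at 48493 to 78902 reads in the controls and 69493 to 76832 after knockdown. Every 28S position was covered in every library. The lowest depth lay at nt 587 in all 12 libraries, at 60 to 76 reads in cells and 273 to 469 in livers. The highest lay at nt 2088 or 2090 in all 12, at 85592 to 118035 reads in cells and 289882 to 443011 in livers. The lowest point of 28S thus lay at the same place in cells and in livers, and the highest within 2 nt.

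Depth was far from even along 28S, and its pattern was nearly the same in all 12 libraries. 28S was divided into 94 windows of 50 nt (the last 17 nt stay outside), and each library was scaled to its mean 28S depth. Over these windows, Pearson's r of log2 depth lay between 0.9987 and 0.9992 for pairs of control cells and between 0.9991 and 0.9995 for pairs of control livers. Between control cells and control livers it lay between 0.9918 and 0.9948. These windows share a reference, a library kit and neighbouring reads, so r is a description.

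Averaged over the 12 libraries, 36 of the 94 windows lay under 0.5 of the 28S mean. They hold 38.2% of 28S positions but only 10.4% ± 0.2 of 28S depth in control cells and 11.1% ± 0.4 in control livers (SD, n = 3 each). At the other end, 11 windows lay above 2 times the mean. They hold 11.7% of positions and 33.2% ± 0.7 of 28S depth in control cells and 32.3% ± 0.9 in control livers (SD, n = 3 each). The unevenness was of the same order in 18S: the coefficient of variation over 50-nt windows was 0.886 ± 0.022 in 28S and 0.912 ± 0.011 in 18S of control cells (SD, n = 3).

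Most of the shallow windows lay in 3 long troughs. The first ran from nt 401 to 1150, broken by 1 deeper window at 801 to 850. Its part at nt 401 to 800 stood at 0.200 ± 0.009 of the 28S mean in control cells and 0.223 ± 0.007 in control livers (SD, n = 3 each). The second ran from nt 2651 to 3200, at 0.183 ± 0.007 and 0.211 ± 0.013 of the mean. The third ran from nt 3601 to 3850, at 0.380 ± 0.013 and 0.395 ± 0.015. The shallowest window of all 4 groups was 601 to 650, at 0.0276 ± 0.0024 of the mean in control cells and 0.0314 ± 0.0025 in control livers.

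The deepest window of all 4 groups was 2101 to 2150, at 4.39 ± 0.24 times the 28S mean in control cells and 4.90 ± 0.25 in control livers (SD, n = 3 each). It belongs to a deep stretch at 1951 to 2150 that alone held 12.7% ± 0.6 of 28S depth in control cells and 14.7% ± 0.7 in control livers. Other deep stretches were the first 100 nt of 28S, the 100 nt that end at nt 400, nt 1701 to 1750 and nt 3501 to 3600. Deepest and shallowest windows thus differed by over 100 times in depth along 1 RNA.

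**Figure D1:**
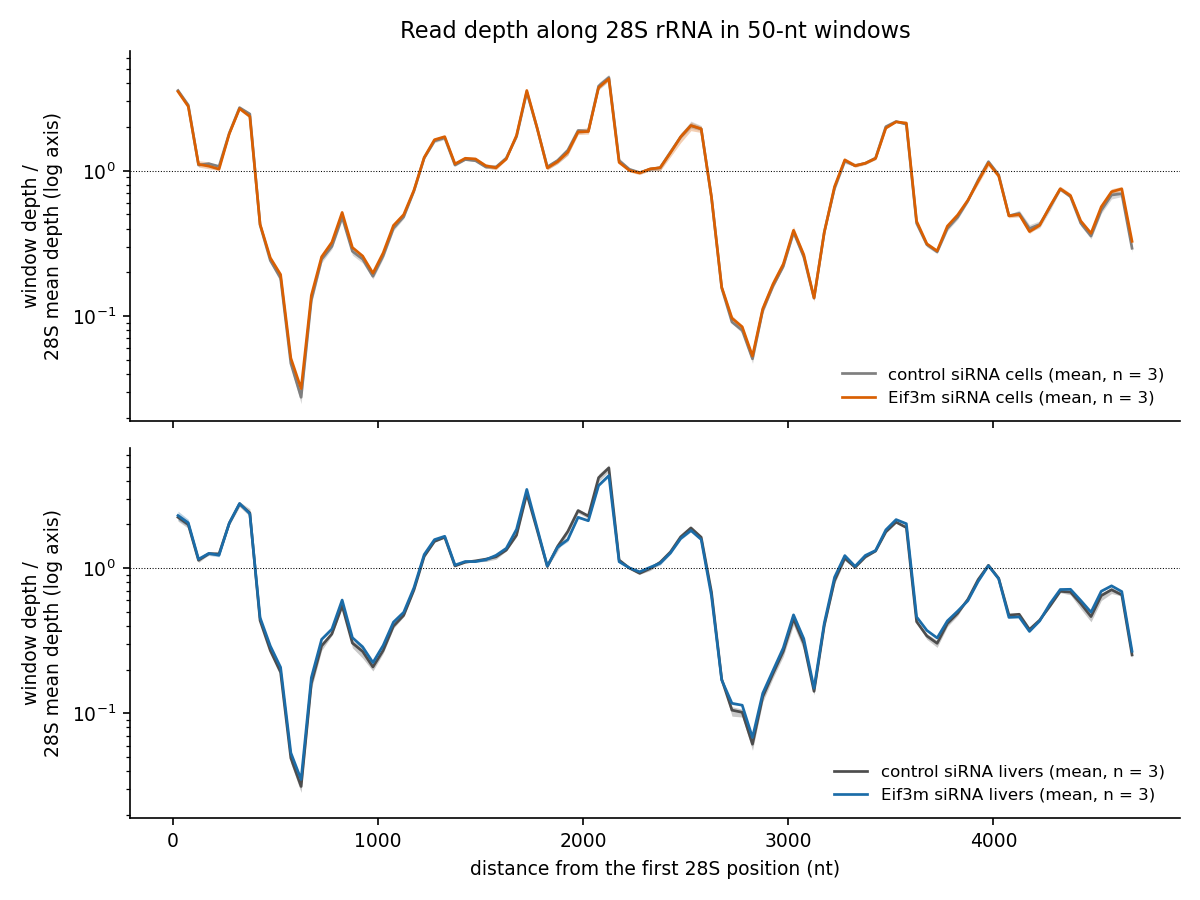
Depth of 50-nt windows along 28S relative to each library's mean 28S depth (vertical log axis) against distance from the first 28S position in nt, for cells (upper panel) and livers (lower panel). Lines are group means of 3 libraries and bands run from the lowest to the highest library; the shallowest window is 601 to 650 and the deepest 2101 to 2150 in all 4 groups, and control and Eif3m siRNA lines nearly coincide.

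The 5′ edge was abrupt. From the last but 1 position of ITS2 to nt 3 of 28S, depth rose 14.2-fold to 18.6-fold in control cells and 5.08-fold to 7.55-fold in knockdown cells. In livers it rose 140-fold to 174-fold in controls and 97.5-fold to 116-fold after knockdown. The smaller rises go with deeper reads before the edge, at the end of ITS2: 3710 ± 962 in control cells and 10740 ± 2501 in knockdown cells (SD, n = 3 each). Just inside 28S the cell groups overlapped, with 49368 to 64677 reads in controls and 58355 to 68514 after knockdown. These reads are not scaled to library depth.

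Depth was already low in the last windows before the 3′ edge, and dropped further across it. The last full window, 4651 to 4700, stood at 0.293 ± 0.017 of the 28S mean in control cells and 0.252 ± 0.012 in control livers (SD, n = 3 each). The last 17 nt had 946 to 1109 reads per position in control cells against 1325 to 1639 after knockdown, and 1675 to 2883 in control livers against 2715 to 2865 after knockdown. Over the edge, in the first 50 nt of the 3′ETS, cells had 37.8 to 72.0 reads in controls and 147 to 253 after knockdown. Livers had 2.52 to 9.58 there in controls and 6.38 to 14.1 after knockdown. The reads at this edge are not scaled to library depth either, and mean summed depth was higher after knockdown in both systems.

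The share of all sequenced rRNA depth that lay in 28S was lower after Eif3m siRNA in both systems, cells and livers. In control cells 28S took 57.4%, 55.3% and 57.5% of summed depth in the 3 libraries, and in knockdown cells 52.4%, 54.1% and 53.6%. Control livers had 62.6%, 63.3% and 62.4%, and knockdown livers 57.8%, 58.6% and 57.4%. In each system every knockdown library lay below every control library. The differences were -3.39 ± 0.87 percentage points in cells and -4.83 ± 0.44 in liver (SE), each with an exact two-sided permutation p of 0.1, the smallest that 3 against 3 allows. Over both systems, with labels exchanged within each, the difference was -4.11 ± 0.49 points (SE; exact permutation p = 0.005, the smallest possible; adjusted over 5 measures, p = 0.025). The call was lost without knockdown cell replicate 1 (-3.88) or replicate 3 (-4.16), each with an exact permutation adjusted p of 0.05.

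The rest of the depth lay almost wholly in 18S and the spacers. In cells, spacers held 3.16% ± 0.55 of summed depth in controls and 8.68% ± 1.37 after knockdown, and 18S held 39.7% ± 0.8 and 37.5% ± 0.7 (SD, n = 3 each). Mean 28S depth over mean 18S depth was 0.569 ± 0.024 in control cells and 0.567 ± 0.007 in knockdown cells. In liver, spacers held 0.115% ± 0.012 and 0.182% ± 0.023, far less than the difference in 28S, and 18S held 36.9% ± 0.5 and 41.6% ± 0.6 (SD, n = 3 each). The 28S over 18S ratio was 0.673, 0.693 and 0.668 in control livers and 0.551, 0.569 and 0.542 in knockdown livers, without overlap. These shares sum to 100% in a library, so a lower share of 28S and a higher share of other regions are 1 measurement. Reads at 28S positions may come from mature 28S or from uncut precursor, and the map does not tell these apart. Mean spacer depth, as a percent of mean 28S depth, was 3.96 ± 0.77 for control cells and 11.5 ± 2.0 for knockdown cells. For livers it was 0.130 ± 0.013 with control siRNA and 0.223 ± 0.028 with Eif3m siRNA (SD over 3 libraries). How much precursor adds to the 28S share and to the pattern along 28S was not measured.

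Along 28S, no window was called higher relative to summed rRNA depth, and many were called lower. limma was fitted to log2(scaled depth + 1) of 50-nt windows over the whole table, with libraries scaled to their summed depth. In cells, 26 of 94 28S windows fell and 0 rose (limma adjusted p under 0.05; 32 and 0 at an unadjusted p under 0.05). Over all 267 windows tested, 14.6% were called lower and 50.9% higher. Control and knockdown cells did not overlap in 27 28S windows with knockdown lower and in 0 with knockdown higher, against 19.1% and 51.3% of all windows. The median change of 28S windows in cells was -0.07 (log2), against 0.50 over all windows. In liver, 48 of 94 28S windows fell and 0 rose (limma; 49 and 0 at an unadjusted p under 0.05), while 18.5% of all 260 windows tested were called lower and 52.3% higher. Liver groups did not overlap in 49 28S windows with knockdown lower and in 0 with knockdown higher, against 18.8% and 51.2% of all windows. The liver median was -0.07 in 28S and 0.20 over all windows.

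The falls in cells were small and of like size. The largest were -0.16 ± 0.07 at nt 4151 to 4200 (limma adjusted p = 0.039), -0.15 ± 0.05 in each of the 2 windows of nt 151 to 250, and -0.14 ± 0.04 at nt 351 to 400 (log2, SE). They depend on what 28S is set against. Scaled to mature rRNA, limma called 0 of the 94 lower, with median-of-ratios scaling 93, and with limma's eBayes without trend 0. Without control cell replicate 3 the count was 8, and without knockdown cell replicate 1 it was 6.

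In liver the falls had a clear low point. The 5 largest were adjacent, from nt 1901 to 2150, and ran from -0.22 ± 0.03 to -0.30 ± 0.03 (log2, SE; limma). The 8 windows at nt 3851 to 4250 fell by 0.13 to 0.18, and the 8 at nt 1 to 400 fell by 0.08 to 0.15. Each of the 5 leading windows kept its call under all 13 alternatives tried, with values between -0.48 and -0.20. The number of liver windows called lower was 93 with median-of-ratios scaling and 26 without the trend.

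The shape of the 28S profile was then compared with each library scaled to its own 28S depth, so that the share of 28S drops out. In liver, the stretch at nt 1901 to 2150, which holds the deepest window, took up less of 28S after knockdown. It held 17.2%, 16.8% and 15.8% of 28S depth in the 3 control livers and 14.5%, 15.0% and 14.9% in the knockdown livers. All 3 knockdown livers lay below all 3 controls, and control liver replicate 3 lay closest to them. All 5 windows fell by limma, from -0.11 ± 0.03 to -0.19 ± 0.03 (log2, SE). The leading window, nt 1901 to 1950, stood at 1.81, 1.84 and 1.72 times the 28S mean in control livers and at 1.52, 1.63 and 1.56 in knockdown livers (limma adjusted p = 8.42e-06). The deepest window, nt 2101 to 2150, stood at 5.14, 4.92 and 4.63 times the mean in control livers and at 4.22, 4.36 and 4.43 in knockdown livers (limma adjusted p = 1.8e-05).

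The neighbouring windows did not pass. The one before the stretch, nt 1851 to 1900, and the one after it, nt 2151 to 2200, stood at differences of -0.02 ± 0.04 and -0.04 ± 0.03 (log2, SE; limma). A further window, nt 2601 to 2650, fell by 0.09. In the other direction, 26 windows rose in liver as a part of 28S depth. With these, 6 of 94 windows fell and 26 rose by limma (6 and 28 at an unadjusted p under 0.05). Over the whole table scaled in this way, 2.31% of windows were called lower, all of them in 28S, and 66.5% higher, most of them outside 28S. Liver groups did not overlap in 13 28S windows with knockdown lower and 37 with knockdown higher, against 5% and 70% of all windows.

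The largest rises in liver lay in the troughs. The largest were 0.16 ± 0.05 at 2751 to 2800, 0.16 ± 0.06 at 2701 to 2750 and 0.16 ± 0.06 at 2801 to 2850, all on the floor of the second trough (log2, SE; limma). Window 2751 to 2800 stood at 0.0943, 0.104 and 0.107 of the 28S mean in control livers and at 0.114, 0.114 and 0.113 in knockdown livers. A run of 9 windows at 651 to 1100, in the first trough, rose by 0.09 to 0.15. It held 2.81%, 3.00% and 3.10% of 28S depth in control livers and 3.21%, 3.23% and 3.23% in knockdown livers. The groups did not overlap, and the 3 knockdown livers were closer to each other than the 3 controls.

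Some rises lay in deep parts, among them nt 3551 to 3600, the first window of a run that rose by 0.09 to 0.13 up to nt 3750 (log2; limma). Another was nt 1651 to 1750, which held 5.18%, 5.10% and 5.41% of 28S depth in control livers and 5.69%, 5.61% and 5.65% in knockdown livers. Window 1651 to 1700 rose by 0.13 ± 0.03 (log2, SE; limma adjusted p = 0.00032). In knockdown livers the stretch at nt 1901 to 2150 was thus a smaller part of 28S, and nt 1651 to 1750, shortly upstream, a larger one. Parts of 28S depth add up to the whole in each library, so a smaller part in some windows makes others larger. Relative to summed rRNA depth, no 28S window was called higher in liver. The changes there were 0.02 ± 0.03 at 1651 to 1700, -0.01 ± 0.03 at 1701 to 1750 and 0.05 ± 0.06 at 2751 to 2800 (log2, SE, limma adjusted p = 0.62, 0.65 and 0.48).

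**Figure D2:**
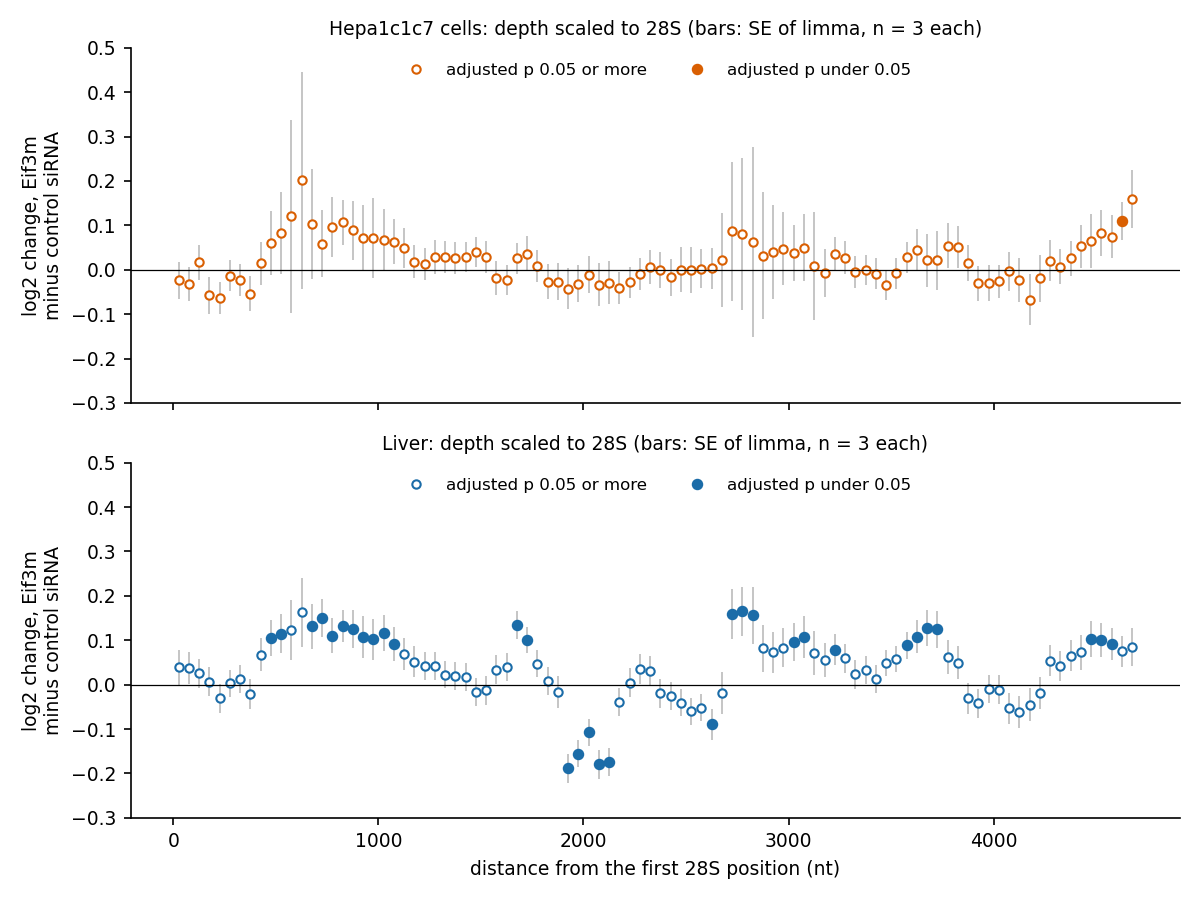
Change of depth within 28S (log2, Eif3m minus control siRNA, libraries scaled to their 28S depth) for 94 windows of 50 nt against distance from the first 28S position in nt; filled points have a limma adjusted p under 0.05, and bars are SE of limma, n = 3 libraries per group. In cells 1 window near the 3′ end is called; in livers 5 adjacent windows at nt 1901 to 2150 lie lowest, between -0.11 and -0.19, and 26 windows are called higher.

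How many liver windows were called depended on the libraries and on the fit. Rises numbered 17 without control liver replicate 1, 4 without knockdown liver replicate 1, 17 without knockdown liver replicate 2 and 6 with eBayes without trend, and falls stayed between 5 and 8 in these fits. With windows of 28S alone in the fit, an alternative chosen after seeing the data, limma called 2 windows higher and 2 lower. The windows called lower were 1901 to 1950 (limma adjusted p = 0.012) and 1951 to 2000 (adjusted p = 0.023), and 1651 to 1700 was among those called higher (adjusted p = 0.023). Windows share reads with their neighbours, so calls of adjacent windows are not independent, and each p borrows its error from all windows fitted.

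In cells, scaled in the same way, limma called 1 of 94 windows higher and 0 lower (2 and 0 at an unadjusted p under 0.05), while 51.3% of all windows of the table were called higher and 0% lower. Cell groups did not overlap in 5 28S windows with knockdown higher and 1 with knockdown lower, against 54.3% and 0.749% of all windows. The window called was nt 4601 to 4650, near the 3′ end. It stood at 0.720, 0.664 and 0.702 of the 28S mean in control cells and at 0.779, 0.746 and 0.726 in knockdown cells, without overlap, a change of 0.11 ± 0.04 (log2, SE; limma adjusted p = 0.040). The call rests on single libraries: it was lost without control cell replicate 2 (0.08), control cell replicate 3 (0.12) or knockdown cell replicate 1 (0.08), and without control cell replicate 1 the count of rises was 5. It was also lost with mean spacer depth subtracted from 28S (0.07, limma adjusted p = 0.30) and with windows of 28S alone (limma adjusted p = 0.29).

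The last full window, 4651 to 4700, differed by 0.16 ± 0.07 in cells and did not pass (log2, SE; limma adjusted p = 0.055). Mean depth of the neighbouring 3′ETS was 0.284% ± 0.045 of mean 28S depth in control cells and 0.851% ± 0.129 in knockdown cells (SD, n = 3 each), and its part in the 3′ end values was not tested. The stretch that fell in liver, nt 1901 to 2150, held 13.4%, 14.8% and 14.3% of 28S depth in control cells and 13.5%, 13.6% and 14.5% in knockdown cells. The knockdown cells lay within the range of the control cells there, and all cell libraries lay below the control livers.

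**Figure D3:**
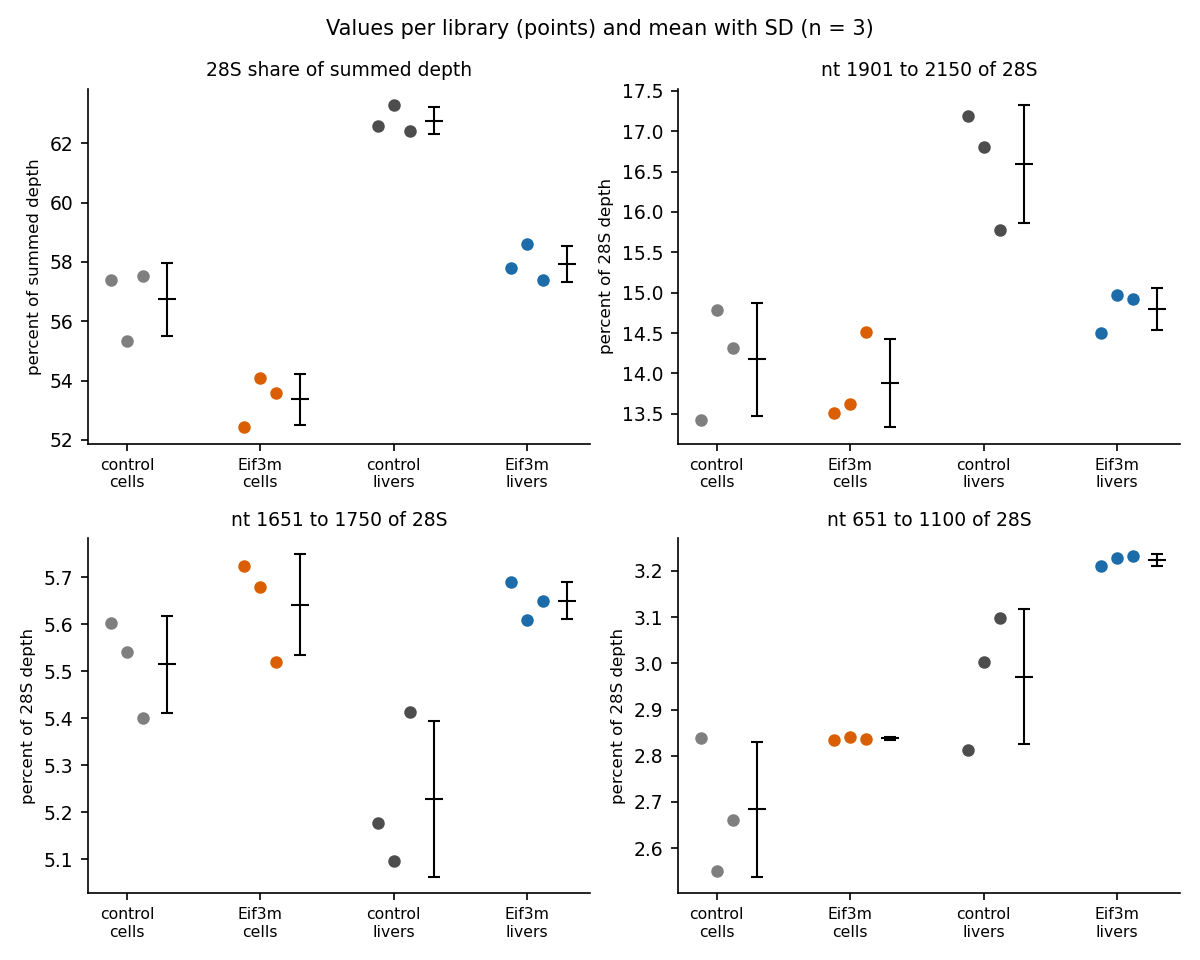
Values of each library (points; mean and SD at the right of each group, n = 3): the 28S share of summed rRNA depth in percent, and the percent of 28S depth held by nt 1901 to 2150, 1651 to 1750 and 651 to 1100 of 28S. Vertical axes do not start at 0. In livers the groups are separate in all 4 panels, in cells only for the 28S share. The stretches of 28S shown were chosen among those that limma called in livers. Their separation in livers is thus no further support, and the panels do not test livers against cells.

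Whether the shape changed differently in liver and in cells was tested with the interaction term over all 12 libraries. limma called 0 of 94 28S windows higher and 0 lower, with 1 and 4 at an unadjusted p under 0.05. Over all 267 windows 13.1% were called higher and 19.1% lower. The difference was -0.15 ± 0.06 at 1901 to 1950 (log2 liver minus cells, SE; limma adjusted p = 0.053) and -0.15 ± 0.06 at 2101 to 2150 (adjusted p = 0.061). Lower calls numbered 4 with a pseudocount of 10, and 2 with windows of 25 nt. With spacer depth subtracted 29 windows were called higher and 4 lower. Leaving out a single library gave 4 for control cell replicate 2, knockdown cell replicate 2 or control liver replicate 3, 2 for knockdown cell replicate 1, and 1 for control cell replicate 3 or knockdown liver replicate 2. By this test the fall in liver is not shown to differ from the values in cells, nor is it shown to be the same.

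No measure of the 5′ to 3′ trend passed a test. Depth fell along 28S in every library, by 0.10 log2 units per kb in control cells (-0.104 ± 0.003) and by a like amount in knockdown cells (-0.102 ± 0.007), control livers (-0.108 ± 0.009) and knockdown livers (-0.110 ± 0.002; SD, n = 3 each). The difference over both systems was -0.00036 ± 0.0034 per kb (SE; exact permutation p = 0.91). The first 25% of positions over the last 25% gave a log2 ratio of 0.486 ± 0.021 in control cells, 0.454 ± 0.041 in knockdown cells, 0.412 ± 0.059 in the control livers and 0.401 ± 0.015 in the knockdown ones (SD, n = 3 each; difference over both systems -0.02 ± 0.02, SE; exact permutation p = 0.335).

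The middle 50% of positions over the outer ones, which includes the stretch above, had a log2 ratio of 0.800, 0.837 and 0.765 in control livers and 0.730, 0.762 and 0.734 in knockdown livers. These groups did not overlap (-0.06 ± 0.02, SE; exact permutation p = 0.1), whereas those of cells did (-0.01 ± 0.03). Over both systems the difference was -0.03 ± 0.02 (SE; exact permutation p = 0.13, adjusted p = 0.27). With medians over positions it was -0.04 and passed (exact permutation adjusted p = 0.025). Local roughness, the SD of log2 depth around a running median that reaches 150 nt to each side, was 0.704 ± 0.005 in control cells, 0.691 ± 0.012 in knockdown cells, 0.676 ± 0.009 in the control livers and 0.672 ± 0.008 in the knockdown ones (SD, n = 3 each; exact permutation p = 0.16 over both systems).

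Local gaps and peaks were placed on the profile averaged over all 12 libraries, without regard to group, as runs of 10 nt or more that lay at least 0.5 (log2) off the running median. There were 9 gaps and 12 peaks, and the 5 leading ones of each kind were compared by their log2 depth relative to the 100 nt on either side inside 28S. The leading gaps were nt 4660 to 4717 at the 3′ end (one flank only), 554 to 666, 3086 to 3164, 2807 to 2849 and 3735 to 3757. The leading peaks were nt 3 to 75 at the 5′ end, 2071 to 2152, 1681 to 1771, 273 to 400 and 789 to 862.

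Over both systems the exact permutation p cannot fall below 0.005, so 1 feature alone could not have passed after adjustment over 10. The test passed 0 of these 10 features after adjustment, with 3 at an unadjusted p under 0.05. Those were the gap at the 3′ end (0.10 ± 0.03, SE; p = 0.02), the peak at 1681 to 1771 (0.06 ± 0.02; p = 0.015) and the gap at 3735 to 3757 (-0.02 ± 0.01; p = 0.045), with exact permutation adjusted p of 0.1, 0.1 and 0.12. Without control cell replicate 1, 2 features passed. In cells the 3′ gap stood at -2.33, -2.40 and -2.33 in controls and at -2.19, -2.22 and -2.17 after knockdown, without overlap (exact permutation p = 0.1). In livers the same gap stood at -2.76, -2.67 and -2.67 in controls and -2.71, -2.62 and -2.64 after knockdown, with overlap. The peak at 2071 to 2152 stood at 1.70, 1.62 and 1.60 in control livers and at 1.52, 1.53 and 1.55 in knockdown livers, without overlap (-0.11 ± 0.03, SE; exact permutation p = 0.1).

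At finer scale the 28S profile averaged over all libraries had 6 narrow notches, where depth dropped within 1 to 5 nt and came back at the next position. They were sought after the data were seen, as runs of up to 9 nt at least 0.5 (log2) below both neighbours in the profile averaged over all libraries; 18S had 2 by the same rule. Depth left at a notch is given as a percent of the mean of both neighbouring positions. Nt 497 kept 5.23% to 5.92% in all 12 libraries, nt 3233 14.8% to 16.2%, and nt 2366 25.9% to 29.7%. Cells and livers overlapped at nt 497 and nt 3233, whereas at nt 2366 every cell library, from 27.98%, lay above every liver, up to 27.90%.

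The other 3 notches differed more between cells and livers. Nt 587, the shallowest of 28S, kept 13.7%, 14.4% and 10.8% in control cells and 9.92%, 11.4% and 12.5% in knockdown cells. It kept 20.6% to 21.5% in control livers and 19.4% to 21.3% in knockdown livers, so that all livers lay above all cell libraries. Nt 1894 to 1898, just upstream of the stretch that fell in liver, kept 36.1% to 37.8% in the 6 cell libraries. The same 5 nt kept 65.0%, 95.5% and 84.0% in control livers and 79.6%, 80.9% and 75.7% in knockdown livers. The drop was thus much smaller in livers, and this notch passed the rule mainly through the cell libraries. Its difference between cells and livers follows in part from that rule. Nt 3150 to 3151 kept 44.9% to 47.95% in the cell libraries, 37.9%, 13.3% and 27.1% in control livers and 29.7%, 36.5% and 26.2% in knockdown livers.

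At both of these last notches the control livers were spread widest. The SD in control livers was 15.4 points at 1894 to 1898 and 12.4 at 3150 to 3151, against 0.47 and 0.52 in control cells (n = 3 each). It was 2.70 and 5.23 points in knockdown livers, against 0.82 and 1.27 in knockdown cells. Depth behind these values was 49360 to 86300 reads per position at the first notch in livers and 1376 to 5709 at the second. Control liver replicate 2 had the highest value of all livers at the first notch and the lowest at the second.

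siRNA groups were not separated there. The knockdown difference in liver was -2.76 ± 9.02 points at 1894 to 1898 and 4.73 ± 7.75 at 3150 to 3151 (SE, exact permutation p = 0.8 and 0.7). Both turned sign without control liver replicate 2 (4.23 and -1.675), and both grew without control liver replicate 1 (-11.0 and 10.7). Over both systems 0 of 6 notches passed the exact permutation test after adjustment, with 2 at an unadjusted p under 0.05. They were nt 497 (0.28 ± 0.08 points, SE; p = 0.025) and nt 3233 (-0.49 ± 0.20; p = 0.04), each with an exact permutation adjusted p of 0.12. What the notches come from was not tested.

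**Figure D4:**
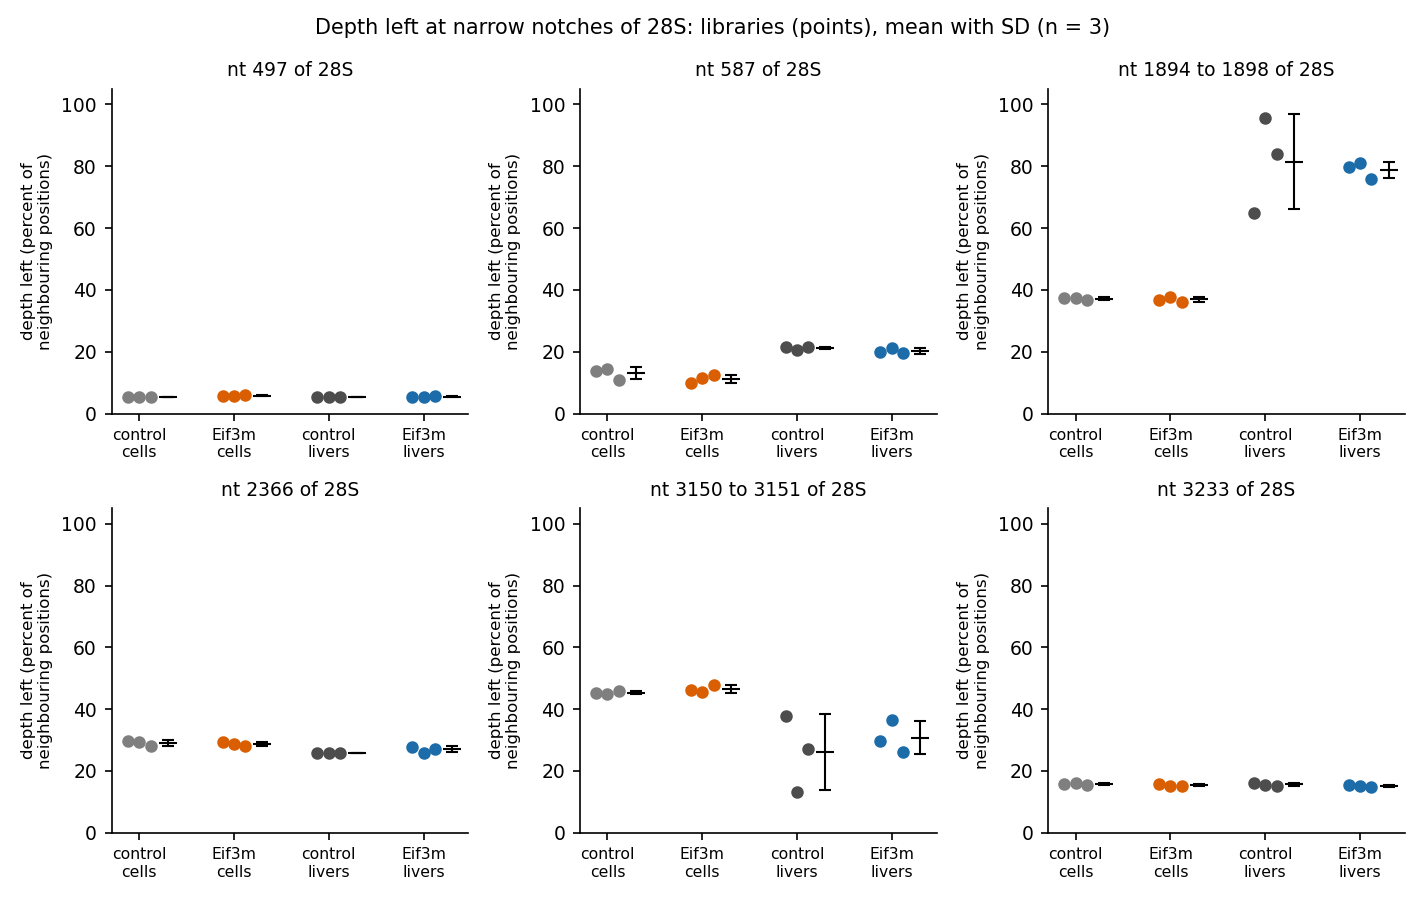
Depth left at the 6 narrow notches of 28S, as a percent of the mean depth of both neighbouring positions (vertical axis from 0), for each library (points; mean and SD at the right of each group, n = 3). Cell libraries lie close together at nt 1894 to 1898 and nt 3150 to 3151, whereas control livers spread from 65.0% to 95.5% at nt 1894 to 1898 and from 13.3% to 37.9% at nt 3150 to 3151.

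Between the control groups, the 28S profiles of cells and livers differed most at the 5′ end. The first window, 1 to 50, stood at 3.57 ± 0.09 times the 28S mean in control cells and 2.24 ± 0.13 in control livers, and the next, 51 to 100, at 2.83 ± 0.03 and 2.00 ± 0.11 (SD, n = 3 each). Livers stood higher at 1951 to 2000 (2.49 ± 0.09 against 1.89 ± 0.08), at 4401 to 4450 (0.570 ± 0.040 against 0.436 ± 0.018), at 4451 to 4500 (0.463 ± 0.032 against 0.355 ± 0.025) and at 1901 to 1950 (1.79 ± 0.06 against 1.39 ± 0.09). What cells and livers differ in cannot be told apart in these values. At 1901 to 1950 the knockdown livers, at 1.57 ± 0.06, lay between the control livers and the control cells (SD, n = 3). Their means also lay between at 1951 to 2000 and 2001 to 2050. At 2051 to 2100 their mean lay below that of control cells (3.70 ± 0.06 against 3.83 ± 0.22). The same held at 2101 to 2150 (4.335 ± 0.11 against 4.39 ± 0.24; SD, n = 3 each). The same control livers enter both comparisons, so a place in between is partly built in where they stand high.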

How the data were processed

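The authors deposited 1 table of coverage signal, whole-number read depth at each position of 1 reference sequence in each library, not scaled to library size. The submitters' processing notes list BWA 0.7.12 and SAMtools 1.3. The sources used here do not give the reference's name, the read length or how duplicate and multiply mapped reads were treated; rRNA genes are repeated, and reads of near-identical copies fall on 1 map. Empty cells (85) were read as 0, and 0 columns were left unused. The region, the measures and the tests were chosen with earlier results of these data known.

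Depth was averaged in 50-nt windows anchored at nt 1 of 28S, over the whole table, leaving out windows whose mean depth was below 10. The log2(scaled depth + 1) values went into limma 3.58.1 (R 4.3.3; lmFit, then eBayes using its trend option), with Benjamini-Hochberg adjustment over all windows of the table and a threshold of 0.05. Its standard errors lean on windows of like depth, spacers included. Fold changes are on that log2 scale. Per-library values were compared with exact two-sided permutation tests of the difference in means, over 20 assignments within a system and 400 over both, so p cannot fall below 0.1 and 0.005; 5 measures, 10 gaps and peaks and 6 notches were adjusted as families. Named windows are the 5 largest rises and 5 largest falls among called 28S windows of each fit, the first and last windows and the extremes of each group; neighbours of a called stretch and the notches were chosen after their values were seen. The scripts were tested on simulated data with planted changes. Within groups, the median absolute log2 difference between 2 libraries was 0.0229 to 0.0718 over the 94 windows, and no library was a copy of another.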

Additional observations from a re-analysis of the deposited data

How the results depend on the processing

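Of the 28S results, the 28S share was lower after knockdown in every alternative tried, and the liver fall at nt 1901 to 1950 and nt 1951 to 2000 kept its call in every alternative in both fits. Counts that moved by over 1.5 times follow. Ranges with 1 library left out are given whether or not they moved by that much. In cells, windows lower relative to summed depth (26) numbered 0 without the trend, 75 with spacer depth subtracted, 0 scaled to mature rRNA and 93 with median-of-ratios scaling, and 6 to 37 with 1 library left out. In liver (48) they numbered 26 without the trend, 93 with median-of-ratios scaling and 38 to 65 with 1 library left out. For shape in cells, 1 window of 47 rose at 100 nt, 0 without the trend, 0 with windows of 28S alone and 2 with spacer depth subtracted, where 26 fell; with 1 library left out 0 to 5 rose and 0 to 1 fell. For shape in liver, 6 rose without the trend; with windows of 28S alone 2 rose and 2 fell; with 1 library left out 4 to 36 rose and 5 to 8 fell. For liver minus cells, lower calls numbered 2 at 25 nt and 4 with a pseudocount of 10; spacer subtraction gave 29 higher and 4 lower; 1 library left out gave 0 to 1 higher and 0 to 4 lower. Subtraction sets 67 to 409 positions of the cell libraries, those below mean spacer depth, to 0, and none in livers.

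Among measures, spacer subtraction turned the cell differences of the slope to -0.041 per kb, of the first over the last 25% to 0.033, of the middle 50% to 0.057 and of roughness to 0.523 (0.262 over both). Without the first and last 100 nt the cell slope difference was -0.005. With medians, the first over the last 25% differed by 0.032 in cells and 0.026 over both, and the middle 50% by -0.037. None of these but the last passed the exact permutation test. The differences within cells could not have passed, since p cannot fall below 0.1 there. The share over both systems was -3.876 to -4.466 with 1 library left out, and gaps and peaks called numbered 0 to 2.

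Same-numbered libraries did not deviate together throughout (correlations of 0.34, 0.062 and 0.080 in cells, 0.017, 0.56 and -0.23 in liver), and some correlated better with another number, so the numbers were not taken as pairs. With the replicate block, sign flips within same-numbered pairs gave -4.111 points for the share over both systems (exact permutation p = 0.03125, the smallest that 6 pairs allow, so that the adjusted p of 0.16 could not have passed), and limma with the replicate number as a block called 1 window higher and 4 lower for liver minus cells. Depth is low at the floor of the first trough in cells.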
